A study of Mus musculus with 9 samples.

Results

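Nnmt and 9 further genes of NAD metabolism were described in heart tissue of C57BL/6 mice, in 5 samples given oxaliplatin at 10 mg/kg and 4 samples given vehicle. The 10 genes were picked by symbol from the 13795 genes of the deposited table and compared between those groups, and all 10 were measured and exceeded the minimum level for testing. They were chosen on values from this same comparison, with the difference in Nnmt already known, so their levels and fold changes are given as a description with no test. Oxaliplatin is a platinum drug used against cancer. Hearts were taken after 8 weeks of treatment, and the age of the mice, the route and the number of doses are not stated in the labels.

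NAD carries electrons in energy metabolism and is also consumed as a substrate by sirtuins, poly(ADP-ribose) polymerases (PARPs) and NAD glycohydrolases, which release nicotinamide. Heart muscle rebuilds NAD mainly by salvage of nicotinamide through nicotinamide phosphoribosyltransferase (Nampt) or of nicotinamide riboside through the kinases Nmrk1 and Nmrk2, followed by the Nmnat enzymes, which add the adenylyl group. Nicotinamide N-methyltransferase (Nnmt) takes nicotinamide out of this cycle by methylating it with S-adenosylmethionine.

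The samples held 29.4 M to 36.9 M normalized counts each. These are gene counts that the authors normalized, by steps that are not described. Heart cell types were mixed in the tissue, so a change in the share of a cell type and a change in RNA per cell cannot be told apart. Cardiomyocyte markers (10 of 10 measured) summed to between 1137050 and 1503290 normalized counts in oxaliplatin samples and between 1417380 and 1797110 in vehicle samples. Atrial markers marked 3 samples as rich in atrial tissue, namely oxaliplatin 2 and 4 with sums of 850382 and 798992 normalized counts and vehicle 1 with 391183, against 12682 to 122208 in the other samples. Results that rest on these 3 samples are also given without them. The atrial marker score, a mean of centred log2 values that weighs each marker equally, was 2.61 to 3.39 in these 3. It was 1.17 in oxaliplatin 3 and -4.00 to -0.68 in the remaining samples. Oxaliplatin 3 was kept when the 3 samples were left out.

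The kinases Nmrk2 and Nmrk1 catalyse the same step, and Nmrk2 is known as the form of skeletal and cardiac muscle. Their promoters are shown because these paralogs differed widely in how their levels varied between oxaliplatin samples. Each run is the RefSeq promoter on GRCm38.p6, 250 bases before to 50 bases after the gene's start, and capitals mark motif matches on either strand. The E-box motif was searched as CANNTG. For the TATA box, TATAAA was searched. The Nmrk2 promoter lies at chr10:81201988-81202287 on the minus strand and the Nmrk1 promoter at chr19:18631766-18632065 on the plus strand.
Nmrk2: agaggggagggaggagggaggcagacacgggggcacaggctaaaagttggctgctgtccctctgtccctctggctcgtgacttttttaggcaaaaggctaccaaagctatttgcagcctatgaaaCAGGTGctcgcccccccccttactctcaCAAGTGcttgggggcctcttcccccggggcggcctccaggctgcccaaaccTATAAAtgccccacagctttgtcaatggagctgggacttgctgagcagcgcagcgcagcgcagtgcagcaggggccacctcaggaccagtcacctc
Nmrk1: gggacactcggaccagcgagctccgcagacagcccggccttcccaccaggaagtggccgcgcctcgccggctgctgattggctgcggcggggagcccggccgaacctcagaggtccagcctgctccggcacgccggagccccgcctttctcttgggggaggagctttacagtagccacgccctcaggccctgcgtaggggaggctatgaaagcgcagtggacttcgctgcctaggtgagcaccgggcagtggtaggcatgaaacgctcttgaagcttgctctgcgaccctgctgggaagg

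Nmrk2 held 2 E-box matches and 1 TATA box match, and Nmrk1 held 0 of either. An E-box occurs in 72.3% and a TATA box in 13.6% of the 32851 RefSeq mouse promoters of that length. CATTCC (the M-CAT element) and TGANTCA (an AP-1 site) were searched in the same way and matched neither promoter, against 14.7% and 7.81% of all promoters. Of the 10 genes, 9 had a promoter in the RefSeq table.

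**Figure D1:**
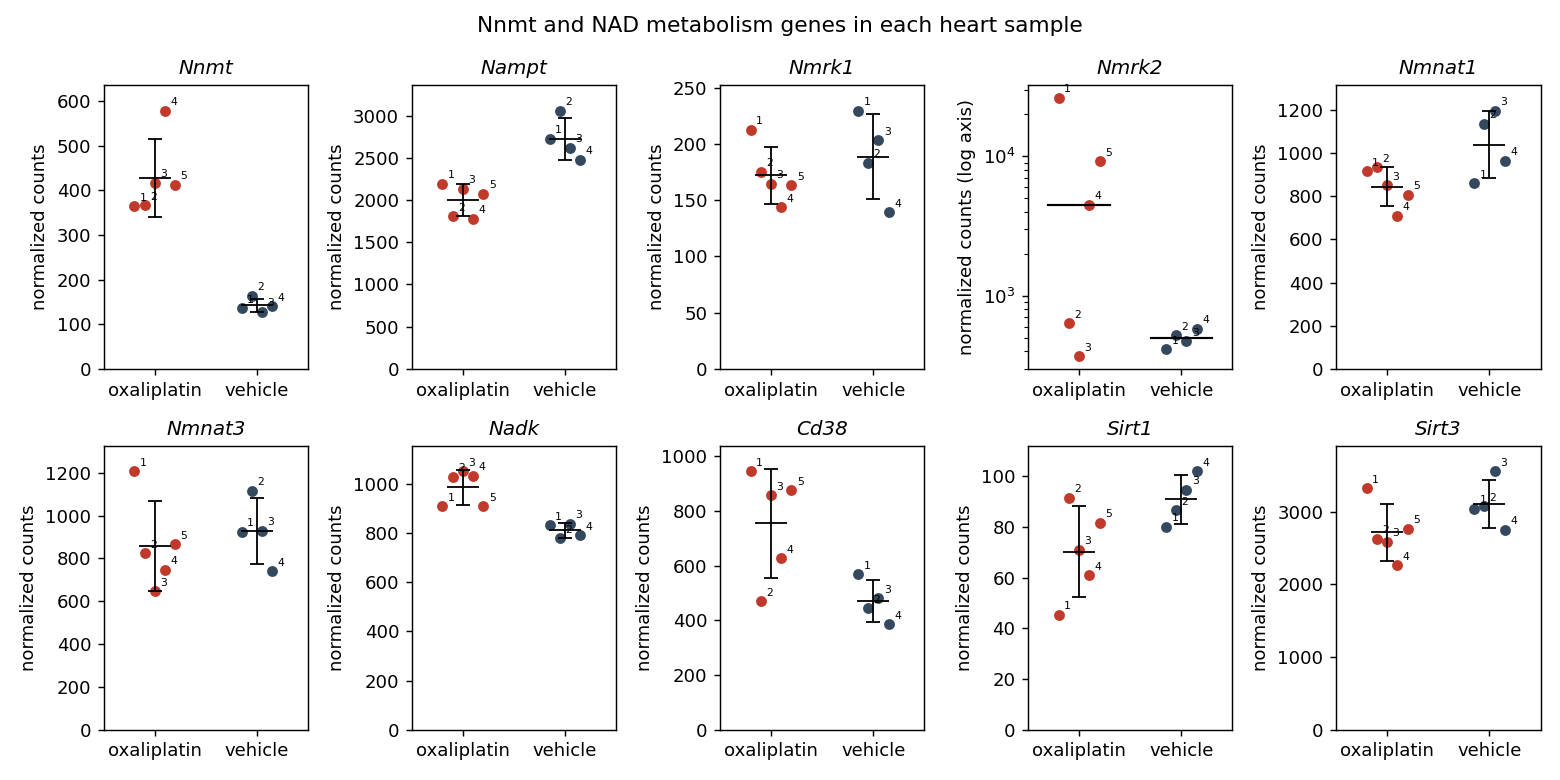
Normalized counts of the 10 genes in each sample, with oxaliplatin samples in red and vehicle samples in dark blue, numbered by replicate. Bars are the mean and SD, except for Nmrk2, which has a log axis and lines at the medians. Nnmt separates the groups, with 364 to 579 in oxaliplatin and 128 to 164 in vehicle samples, and Nmrk2 reaches 26192 in oxaliplatin 1 while oxaliplatin 3 has 371.

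Nnmt, on chromosome 9 from 48591877 to 48605153 (GRCm38, minus strand, protein coding), had 364, 366, 418, 579 and 412 normalized counts in oxaliplatin samples 1 to 5, against 136, 164, 128 and 140.2 in vehicle samples 1 to 4. Every oxaliplatin sample lay above every vehicle sample. The means were 428 ± 87.9 in oxaliplatin and 142 ± 15.6 in vehicle samples (SD, n = 5 and n = 4), and the log2 fold change was 1.57 with a standard error of 0.16. Of 13788 genes tested, 330 had a larger log2 fold change. Against the vehicle median, the oxaliplatin samples stood between 2.64-fold and 4.19-fold.

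Nnmt is known to be expressed in fibroblasts and fat, so markers of these cells were set beside it. All 10 fibroblast markers were measured and had positive log2 fold changes, of which 2 passed the test across all genes (adjusted p under 0.05). Over all genes tested, 9.23% passed as higher and 52.3% had a negative log2 fold change. The fibroblast marker sum ran from 30747 to 84343 normalized counts in oxaliplatin samples and from 23816 to 34184 in vehicle samples. Oxaliplatin 4 was highest in both Nnmt and fibroblast markers. Oxaliplatin 1 had a fibroblast marker sum of 30747, inside the vehicle range, of which 15549 came from Dcn. The 2 markers that passed, Mfap5 and Postn, were above every vehicle sample in oxaliplatin 1 too. Mfap5 had 3981 normalized counts in oxaliplatin 1 and 727 to 1134 in vehicle samples, and Postn had 2016 in oxaliplatin 1 and 300.1 to 824 in vehicle samples. Pdgfra and Tcf21 were below every vehicle sample in oxaliplatin 1. Pdgfra had 252 there and 359 to 488 in vehicle samples, and Tcf21 had 319 there and 340 to 492 in vehicle samples. Col1a1, Col1a2, Col3a1, Dcn, Lum and Dpt lay within the vehicle range in oxaliplatin 1. With the fibroblast marker score as a covariate the log2 fold change of Nnmt was 1.25. Adipocyte markers (7 of 8 measured, 6 tested, 0 passed in limma, 1 with an unadjusted p under 0.05) summed to between 1455 and 8721 normalized counts in oxaliplatin samples and to between 1258 and 1816 in vehicle samples. Markers of epicardial and mesothelial cells (5 of 5 measured) rose in 2 cases, where 9.23% of all genes rose. They summed to between 1399 and 4072 in oxaliplatin samples and to between 160.3 and 851 in vehicle samples. The part of fat and epicardial cells in the Nnmt difference was not tested.

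**Figure D2:**
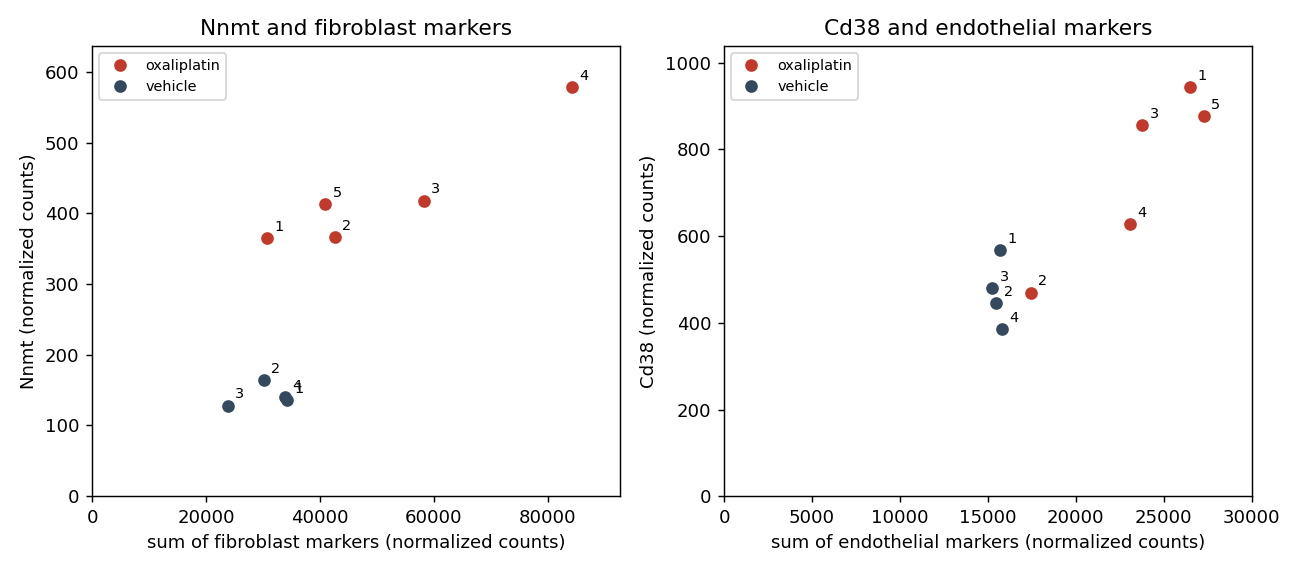
Level of a gene (vertical axis, normalized counts) against the sum of cell type markers (horizontal axis, normalized counts) in each numbered sample, for Nnmt with fibroblast markers and Cd38 with endothelial markers. Oxaliplatin samples are red and vehicle samples dark blue. Oxaliplatin 1 has an Nnmt level of 364 at a fibroblast marker sum within the vehicle range. Single markers in it were above, below or within their own vehicle ranges. Oxaliplatin 2 has a Cd38 level of 469, within the vehicle range.

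Nampt, which makes nicotinamide mononucleotide from nicotinamide and limits the rate of salvage, had 2191, 1809, 2133, 1778 and 2076 normalized counts in oxaliplatin samples 1 to 5, against 2725, 3057, 2620 and 2478 in vehicle samples 1 to 4. Every oxaliplatin sample lay below every vehicle sample. The log2 fold change was -0.45 with a standard error of 0.11, a ratio of means of 0.734. Cardiomyocyte markers moved in the same direction. Of 10, 9 had negative log2 fold changes, 3 fell (Myh6, Myl2 and Atp2a2) and the median was -0.36. Over all genes tested, 52.3% had a negative log2 fold change and 5.03% fell. The sums of cardiomyocyte markers, given above, overlapped between the groups. Their scores, means of centred log2 values that weigh each marker equally, did not. These were -0.29 to 0.01 in oxaliplatin and 0.08 to 0.31 in vehicle samples. The part of cardiomyocyte RNA in the Nampt difference was not tested.

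Nmrk2 differed more among the oxaliplatin samples than any other of the 10 genes. It had 26192, 637, 371, 4508 and 9207 normalized counts in oxaliplatin samples 1 to 5, against 414, 521, 472 and 583 in vehicle samples 1 to 4. Oxaliplatin 1, 5 and 4 stood at 52.7, 18.5 and 9.07 times the vehicle median, oxaliplatin 2 at 1.28 times and oxaliplatin 3 at 0.746 times. The groups therefore overlapped, through the lowest oxaliplatin sample. The medians were 4508 in oxaliplatin and 497 in vehicle samples. The log2 fold change was 2.62 with a standard error of 1.29, and it ran from 1.84 without oxaliplatin 1 to 3.37 without oxaliplatin 3. Within the oxaliplatin group the log2 values had an SD of 2.59, against 0.21 within the vehicle group, and 32 of 13788 genes had a larger SD within oxaliplatin samples. The median gene had 0.26 in oxaliplatin and 0.23 in vehicle samples.

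The exons of Nmrk2 overlap over 270 bases with those of Atcayos on the other strand, and whether the counting used strand is not stated. Atcayos had between 3951 and 6890 normalized counts in oxaliplatin samples, with 4817 in oxaliplatin 1, and between 4136 and 6397 in vehicle samples. Nmrk2 is also abundant in skeletal muscle, so skeletal muscle markers, a list added after the data were seen, were looked at. Of 10, 4 were measured. Tnnt3, the fast skeletal troponin T, had 11.9, 20.3, 7.01, 44.7 and 8.97 normalized counts in oxaliplatin samples 1 to 5, and 3.35 to 12.1 in vehicle samples. Tnni2, the fast skeletal troponin I, had 43.0, 42.3, 28.0, 52.8 and 45.7 in oxaliplatin samples 1 to 5, and 32.3 to 42.4 in vehicle samples. Both were highest in oxaliplatin 4, and in oxaliplatin 1, where Nmrk2 was highest, Tnnt3 lay within and Tnni2 just above the vehicle range. Acta1, skeletal actin, which heart also expresses, had 3473 to 29384 in oxaliplatin and 19013 to 38804 in vehicle samples. Atp2a1, the fast muscle calcium pump, had 3.59 to 83.4 in oxaliplatin samples, lowest in oxaliplatin 1, and 10.1 to 58.8 in vehicle samples. The part of skeletal muscle RNA in the Nmrk2 levels was not tested. Oxaliplatin 1 and 5 had low atrial marker sums, of 36425 and 27960 normalized counts, and oxaliplatin 4 a high one. The log2 fold change of Nmrk2 without the 3 samples rich in atrial tissue was 3.09, and it was 4.17 with the fibroblast and 1.56 with the erythroid marker score as a covariate.

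Nmrk1, the widely expressed riboside kinase, had 213, 175, 165, 144 and 163 normalized counts in oxaliplatin samples 1 to 5, against 229, 183, 203 and 139 in vehicle samples 1 to 4. The groups overlapped throughout, with a log2 fold change of -0.12 and a standard error of 0.18. Per kilobase of exon, Nmrk2 stood at 245, 7.24, 4.48, 62.4 and 112 times Nmrk1 in oxaliplatin samples 1 to 5, against 3.59, 5.66, 4.62 and 8.34 times in vehicle samples 1 to 4. The ratio in oxaliplatin 2 and 3 lay within the range of vehicle samples.

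The Nmnat enzymes complete both salvage routes, and the nuclear Nmnat1 and the mitochondrial Nmnat3 each overlapped between the groups. Nmnat1 had 915, 935, 851, 710 and 808 normalized counts in oxaliplatin samples 1 to 5, against 862, 1137, 1197 and 965 in vehicle samples 1 to 4, a log2 fold change of -0.30 with a standard error of 0.13. Nmnat3 ran from 646 to 1206 normalized counts in oxaliplatin samples and from 740.2 to 1116 in vehicle samples, a log2 fold change of -0.13 with a standard error of 0.17. The lowest Nmnat3 level was in oxaliplatin 3 and the highest in oxaliplatin 1.

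Nadk, the cytosolic kinase that turns NAD into NADP, had 908, 1029.5, 1050.3, 1033 and 910.1 normalized counts in oxaliplatin samples 1 to 5, against 832, 779.7, 838 and 792 in vehicle samples 1 to 4. The groups did not overlap, although the difference was small, at a log2 fold change of 0.28 with a standard error of 0.10. It was also the steadiest of the genes in vehicle samples, where its highest level was 1.07 times its lowest.

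Cd38, a membrane NAD glycohydrolase, had 944, 469, 857, 627 and 876 normalized counts in oxaliplatin samples 1 to 5, against 568, 445, 481 and 386 in vehicle samples 1 to 4. Oxaliplatin 2 lay within the vehicle range and the other 4 oxaliplatin samples above it. The log2 fold change was 0.65 with a standard error of 0.20, and 1.03 without the 3 samples rich in atrial tissue. Cd38 is known from lymphocytes, macrophages and endothelium. B cell markers (3 of 6 measured) fell in 3 of 3 cases, where 5.03% of all genes fell. They summed to 33.5 to 155 normalized counts in oxaliplatin and 262 to 456 in vehicle samples. No gene of the deposited data stayed below 40.6 in all samples. Cd79a reached 12.6 and Cd79b 25.5 at most in oxaliplatin samples, so both were present only through their vehicle levels. Their falls follow in part from that limit and are not independent support. Endothelial markers (8 of 8 measured) rose in 1 case (12.5%), near the 9.23% of all genes that rose. They summed to between 17460 and 27301 in oxaliplatin samples and to between 15258 and 15804 in vehicle samples. Among oxaliplatin samples, 2 was lowest and 4 next lowest in both Cd38 and endothelial markers. Macrophage markers (8 of 8 measured) also rose in 1 case (12.5%), again near the share of all genes. They summed to between 6333 and 16446 in oxaliplatin samples and to between 7607 and 9701 in vehicle samples. The part of these cells in the Cd38 difference was not tested.

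The sirtuins are NAD-dependent deacylases. Sirt1, mainly nuclear, had 45.4, 91.6, 71.0, 61.0 and 81.6 normalized counts in oxaliplatin samples 1 to 5, against 80.1, 86.7, 94.7 and 102 in vehicle samples 1 to 4, a log2 fold change of -0.40 with a standard error of 0.23. The groups overlapped at these low counts. Sirt3, the main deacetylase of mitochondria, ran from 2264 to 3325 normalized counts in oxaliplatin samples and from 2753 to 3556 in vehicle samples, a log2 fold change of -0.20 with a standard error of 0.12. Exons of Sirt3 overlap with those of Ric8a and Psmd13 on the other strand, over up to 418 bases.

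**Figure D3:**
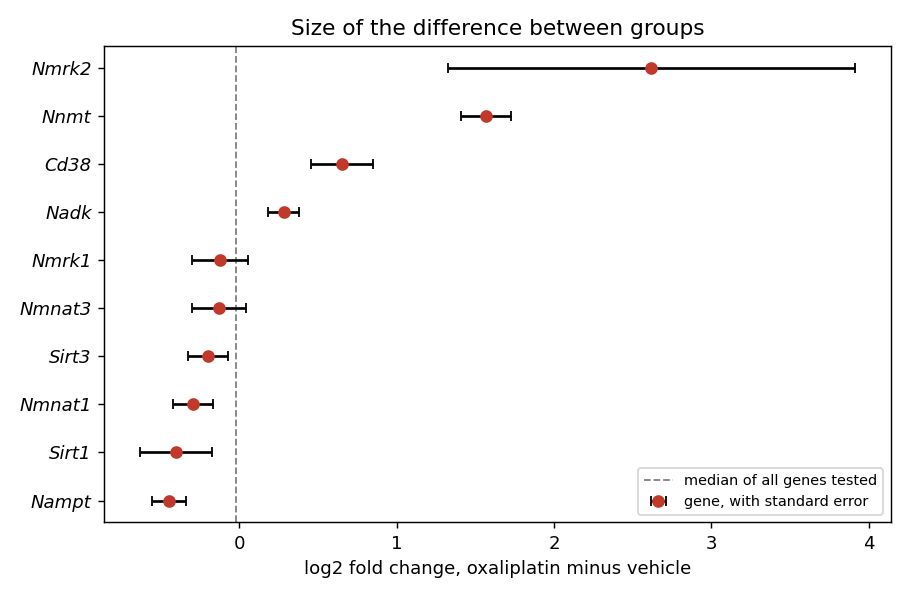
Log2 fold change of oxaliplatin minus vehicle (horizontal axis) for each of the 10 genes, with its standard error as a bar and the median of all genes tested, -0.02, as a dashed line. Nmrk2 has the largest difference, 2.62, with the widest bar, and Nnmt follows at 1.57 with a standard error of 0.16.

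Across the 10 genes 4 log2 fold changes were positive and 6 negative, with a median of -0.13, against a median of -0.02 over all genes tested. Of the 10, 3 passed in limma, where 14.3% of all genes tested did. Nnmt and Cd38 passed as higher, where 9.23% of all genes did, and Nampt as lower, where 5.03% did. Nnmt, Nadk and Nampt, 3 of the 10, had no overlap between groups, as had 14.9% of all genes tested. Because this comparison chose the genes, nothing is read from these counts. The same holds for which of the genes passed when samples were left out or the processing was changed. Without vehicle 2 only Nnmt passed, and Nampt also failed to pass without the 3 samples rich in atrial tissue and with the erythroid or the fibroblast marker score as a covariate. Erythroid markers had negative log2 fold changes in 8 of 8 cases, with a median of -2.79, but 0 passed. Of all genes tested, 52.3% had a negative log2 fold change. The erythroid marker sum of oxaliplatin 3, 359844 normalized counts, lay within the vehicle range of 222495 to 572532. In the other oxaliplatin samples the sum was 8329 to 43341. Cd38 did not pass when oxaliplatin 1, 3, 4 or 5 or vehicle 2, 3 or 4 was left out, after quantile normalization, with plain moderation or with the fibroblast score.

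Levels of different genes were compared as normalized counts per kilobase of annotated exon. In oxaliplatin samples Nmrk2 had the highest mean of the 10, at 4414 ± 5764 per kilobase (SD, n = 5), with 14127 in oxaliplatin 1 and its lowest level in oxaliplatin 3. Sirt3 (455 ± 64.9), Nampt (395 ± 37.8), Nmnat1 (278 ± 29.8), Nnmt (272 ± 55.8) and Nadk (263 ± 18.9) followed, then Cd38 (194 ± 51.2) and Nmnat3 (172 ± 42.3). Neighbours in this order overlapped in range, except Nampt and Nmnat1, Nmnat3 and Nmrk1, and Nmrk1 and Sirt1. Nnmt thus ranked 5 of 10 in oxaliplatin samples, against 8 of 10 in vehicle samples. In vehicle samples the order was Nampt (538 ± 48.8), Sirt3 (520.2 ± 55.7), Nmnat1 (342 ± 50.8), Nmrk2 (268 ± 38.7), Nadk (216 ± 7.71), Nmnat3 (185 ± 30.7), Cd38 (121 ± 19.5) and Nnmt (90.2 ± 9.87) per kilobase (SD, n = 4). Their neighbours overlapped in range, except Sirt3 and Nmnat1, Nmnat3 and Cd38, Nnmt and Nmrk1, and Nmrk1 and Sirt1. In both groups Nmrk1 and then Sirt1 were lowest, with 46.6 ± 6.90 and 13.1 ± 3.37 per kilobase in oxaliplatin samples and 51.2 ± 10.3 and 17.0 ± 1.78 in vehicle samples.

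The genes whose levels followed Nnmt and Nmrk2 most closely were found by the mean absolute difference over the 9 samples between log2 profiles, each centred on its own mean, as a description of these samples. Nearest to Nnmt were Qpct (0.14), Kcne4 (0.14), Anxa1 (0.15), Cenpt (0.16), Lyve1 (0.17) and Sfxn3 (0.18), where the median gene differed by 0.80. Anxa1, annexin A1, had 2569, 2255, 3443, 4928 and 3178 normalized counts in oxaliplatin samples 1 to 5 and 802 to 1165 in vehicle samples, with oxaliplatin 4 highest as in Nnmt. Oxaliplatin 4 was the highest sample in each of the 6, which follows in part from picking them for likeness to Nnmt. Nmrk2 had no close neighbour. The 6 nearest were Apod (0.85), Slc18a1 (0.87), Nts (0.92), Bean1 (0.93), Cdkn1a (0.95) and Klk14 (0.96), where the median gene differed by 1.96. Slc18a1, Nts, Bean1 and Klk14 stayed below 40.6 in every vehicle sample, and no gene of the deposited data did so in all samples. These genes were thus present only through their oxaliplatin levels, and their likeness to Nmrk2 follows in part from that limit. Cdkn1a, the cell cycle inhibitor p21, had 7913, 1790, 3564, 4823 and 6581 normalized counts in oxaliplatin samples 1 to 5 and 299 to 854 in vehicle samples. It was highest in oxaliplatin 1, 5 and 4, as Nmrk2 was, which follows in part from its selection for likeness. In oxaliplatin 3, where Nmrk2 lay below the vehicle range, Cdkn1a lay above its own.

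**Figure D4:**
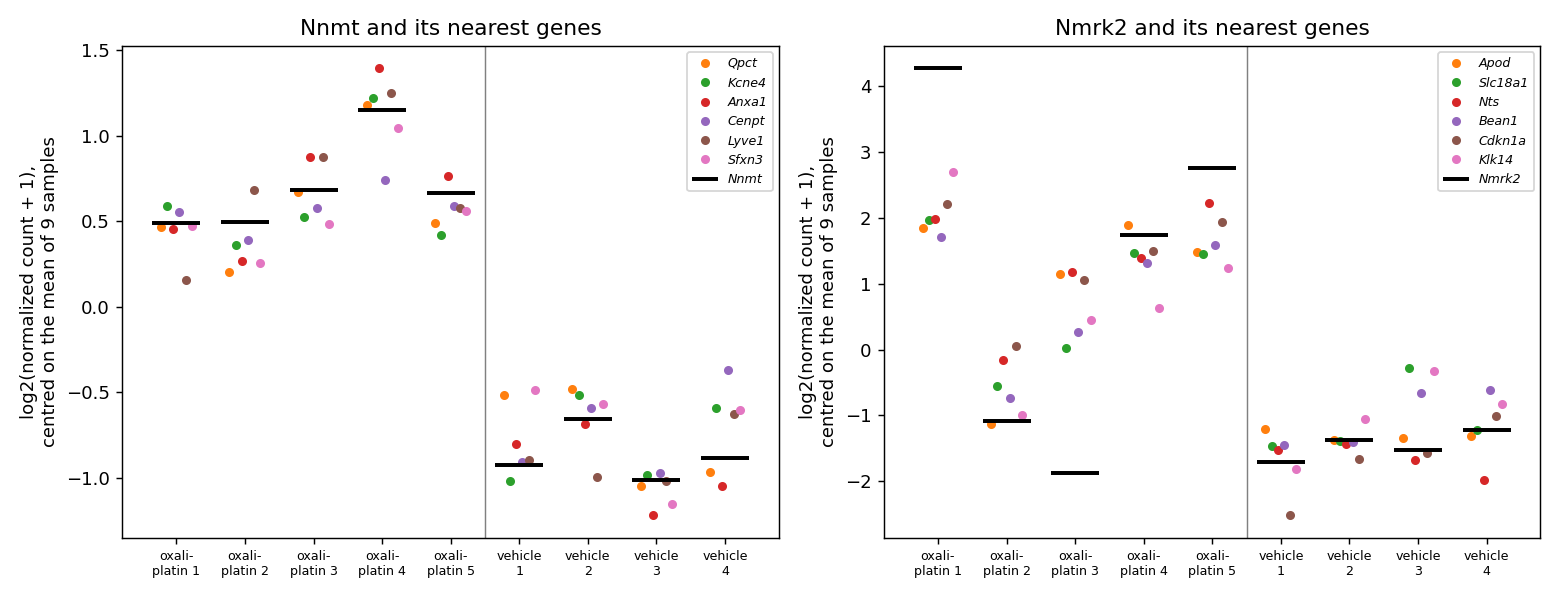
Log2(normalized count + 1) in each sample, centred on the mean of the 9 samples, for Nnmt (left) and Nmrk2 (right) as black lines and for their 6 nearest genes as coloured points, with oxaliplatin samples left of vehicle samples. The points lie close to the lines for Nnmt, at mean differences of 0.14 to 0.18, and farther from them for Nmrk2, at 0.85 to 0.96, most visibly in oxaliplatin 1 and 3.

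Other genes of NAD metabolism, which are not among the 10, changed in both directions. Their lists, and the methyl donor list below, were also drawn up with earlier results of these data known. Counts and p-values of these lists are therefore not independent support. Of 78 listed, 65 were measured, of which 6 rose (9.23%), 5 fell (7.69%) and 54 did not pass, with a median log2 fold change of -0.07. The shares over all genes were those given above, 9.23% higher and 5.03% lower. No share of all genes at an unadjusted p under 0.05 in limma is given here, so list counts at that level are not read as results. Without the 3 samples rich in atrial tissue 3 rose and 2 fell. Leaving out oxaliplatin 4 gave 3 that rose and 3 that fell, vehicle 3 gave 3 and 1, vehicle 2 gave 5 and 3, and oxaliplatin 1 gave 5 and 8.

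Genes that release or carry NAD precursors held 4 of the 6 that rose. Of 12 measured, 4 rose and 0 fell, where 9.23% of all genes rose and 5.03% fell, 5 had an unadjusted p under 0.05 in limma, and the median log2 fold change was 0.24. Pnp, purine nucleoside phosphorylase, which splits nicotinamide riboside and purine nucleosides, averaged 698 ± 79.3 normalized counts in oxaliplatin and 388 ± 71.7 in vehicle samples (SD, n = 5 and n = 4), with groups that did not overlap (a log2 difference of 0.86 with standard error 0.14 and adjusted p = 0.00234 in limma). Nt5e, the ecto-5'-nucleotidase CD73, rose by 0.49 (adjusted p = 0.0406), Enpp3, an ectonucleotide pyrophosphatase, by 0.67 (adjusted p = 0.0333), and Slc12a8, proposed in mice as a carrier of nicotinamide mononucleotide, by 1.62 from low levels (60.9 ± 26.6 in oxaliplatin and 21.6 ± 16.5 in vehicle samples, adjusted p = 0.0406). The calls of Nt5e, Enpp3 and Slc12a8 each depended on several single samples. Nt5e did not pass without oxaliplatin 1, 2 or 4 or vehicle 1, 3 or 4 (adjusted p 0.0600 to 0.132). Enpp3 did not pass without oxaliplatin 3, 4 or 5 or vehicle 1, 3 or 4 (0.0622 to 0.0889). Slc12a8 did not pass without oxaliplatin 2, 3, 4 or 5 or vehicle 2, 3 or 4 (0.0576 to 0.102). Without the 3 samples rich in atrial tissue Nt5e, Enpp3 and Slc12a8 had adjusted p = 0.209, 0.151 and 0.0566. Synthesis from tryptophan or nicotinic acid had 3 of 12 genes measured, and 0 passed in limma or had an unadjusted p under 0.05. Afmid, the formamidase of the kynurenine pathway, had a log2 fold change of 0.38 (adjusted p = 0.199) and Nadsyn1, NAD synthetase, one of 0.13 (adjusted p = 0.588).

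Among genes of the lists for NAD use and for ADP-ribose removal, Bst1 rose and Art5, Parp1, Macrod1 and Adprhl1 fell. Bst1, an ectoenzyme related to Cd38, had 46.6, 97.8, 42.9, 66.6 and 43.0 normalized counts in oxaliplatin samples 1 to 5 against 16.7, 15.6, 8.60 and 10.1 in vehicle samples 1 to 4, and no sample overlapped (log2 fold change 2.10, standard error 0.37, adjusted p = 0.00324). No gene of the deposited data stayed below 40.6 in all samples, so Bst1 was present only through its oxaliplatin levels. Its lack of overlap and its adjusted p in limma follow in part from that limit and are not independent support. Art5, of the ecto-ADP-ribosyltransferase family, fell by 1.13 on the log2 scale, with 353 ± 124 normalized counts in oxaliplatin and 740.5 ± 98.0 in vehicle samples (adjusted p = 0.00550). Of 15 PARPs and tankyrases 1 fell and 0 rose, where 5.03% of all genes fell and 9.23% rose. Only 1, the same gene, had an unadjusted p under 0.05 in limma. This was Parp1, the main PARP activated by DNA strand breaks, with 968, 993, 976, 879 and 876 normalized counts in oxaliplatin samples 1 to 5 against 1214, 1234, 1196 and 1163 in vehicle samples 1 to 4 (log2 fold change -0.36, standard error 0.09, adjusted p = 0.0224). Its groups did not overlap, but it did not pass without oxaliplatin 4 or 5 or vehicle 1, 2 or 3 (adjusted p 0.0566 to 0.0692). Nor did it without the 3 samples rich in atrial tissue (adjusted p = 0.123). Of 7 genes listed under ADP-ribose removal, 2 fell and 0 rose, where 5.03% of all genes fell and 9.23% rose. Adprhl1, 1 of these 2, was listed for its family and is only hydrolase-like. In limma 4 of the 7 had an unadjusted p under 0.05. Macrod1, a mitochondrial ADP-ribose hydrolase, fell by 0.73 (adjusted p = 0.0145), and Adprhl1, an ADP-ribosylhydrolase-like protein of heart, averaged 18640.3 ± 3627 normalized counts in oxaliplatin and 28865 ± 2801 in vehicle samples (log2 fold change -0.65, adjusted p = 0.0154). Neither passed without vehicle 3 (adjusted p = 0.0512 and 0.0586), and Adprhl1 had an adjusted p of 0.0824 without the 3 samples rich in atrial tissue. Of the 5 other sirtuins 0 passed in limma and 1 had an unadjusted p under 0.05. Sirt4, a mitochondrial sirtuin, had a log2 fold change of -0.31 (adjusted p = 0.0740, and 0.0428 without oxaliplatin 1) and Sirt7, of the nucleolus, one of 0.11 (adjusted p = 0.748), which was -0.03 without vehicle 3.

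Of 18 genes that supply NADP and NADPH or repair damaged forms, 1 rose, 1 fell and 16 did not pass, with a median of -0.19. Over all genes 9.23% rose and 5.03% fell. Mthfd2, the mitochondrial methylenetetrahydrofolate dehydrogenase, had 178, 228, 293, 345 and 158 normalized counts in oxaliplatin samples 1 to 5 against 82.7 to 106 in vehicle samples, with no overlap (log2 fold change 1.24, standard error 0.23, adjusted p = 0.00403). Me1, the cytosolic malic enzyme, fell by 0.43 (adjusted p = 0.0328) with groups that overlapped. Me1 did not pass without oxaliplatin 2, 3 or 4 or vehicle 2, 3 or 4 (adjusted p 0.0508 to 0.0992), nor without the 3 samples rich in atrial tissue (adjusted p = 0.0633).

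Genes around the methyl group that Nnmt uses were listed separately. Of 28, 23 were measured, of which 3 fell, 0 rose and 20 did not pass, where 5.03% of all genes fell and 9.23% rose, with 5 at an unadjusted p under 0.05 in limma and a median log2 fold change of -0.18. Those that fell were not enzymes that make or recycle S-adenosylmethionine. They were spermine synthase, Sms (963 ± 98.8 in oxaliplatin and 1589.7 ± 217 in vehicle samples, log2 fold change -0.72, standard error 0.12, adjusted p = 0.00253), and the methyltransferases As3mt and Inmt. As3mt, which methylates arsenic, fell by 0.40 (adjusted p = 0.0267) and Inmt, which methylates indolamines, by 1.55 (adjusted p = 0.0480). Inmt had 134, 539, 600, 190 and 250 normalized counts in oxaliplatin samples 1 to 5 against 625, 890, 1035 and 929 in vehicle samples 1 to 4. As3mt did not pass without oxaliplatin 3, 4 or 5 or vehicle 2 or 3 (adjusted p 0.0504 to 0.0980), and Inmt did not pass without oxaliplatin 1, 4 or 5 or any 1 of the vehicle samples (0.0549 to 0.119). When oxaliplatin 4, oxaliplatin 5, vehicle 2 or vehicle 3 was left out, 1 gene of the list fell. Without the 3 samples rich in atrial tissue neither As3mt nor Inmt passed (adjusted p = 0.0795 and 0.0886).

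**Figure D5:**
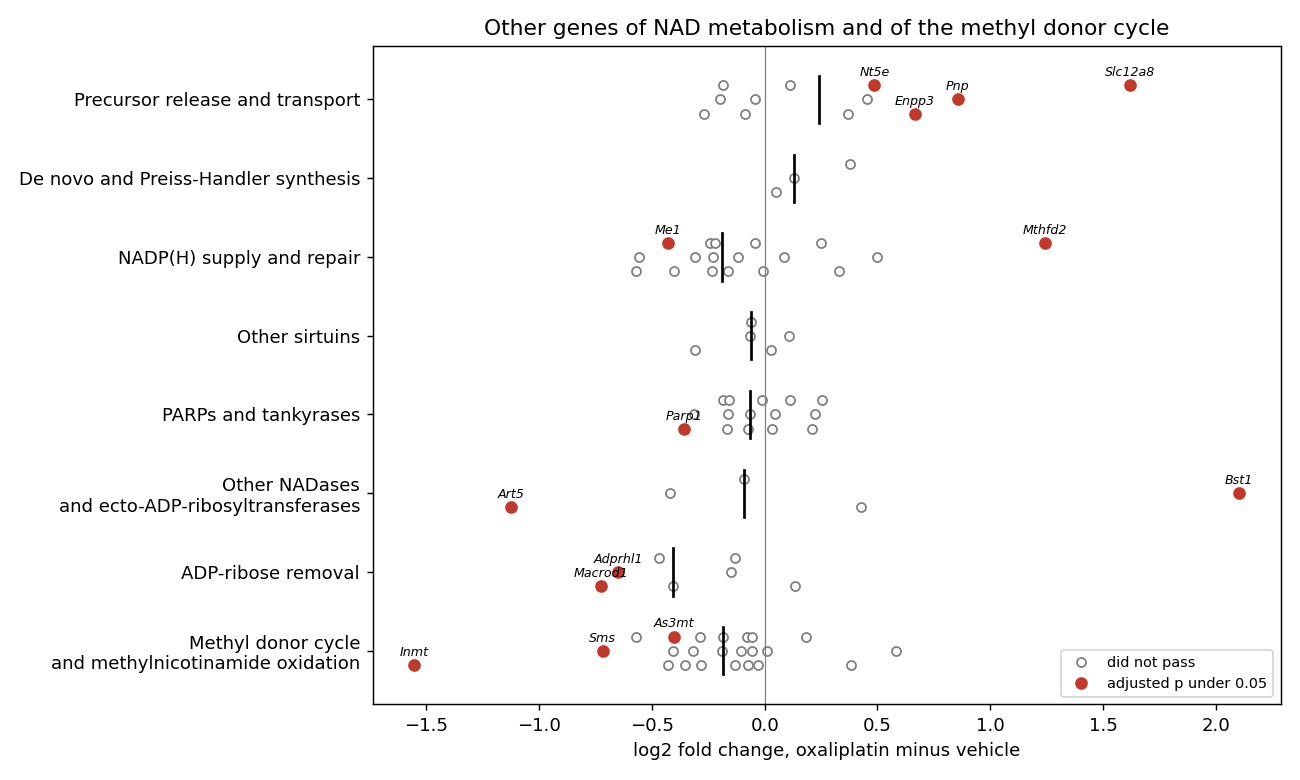
Log2 fold change of oxaliplatin minus vehicle (horizontal axis) for each measured gene of 7 lists of NAD metabolism and 1 list around S-adenosylmethionine, 1 row per list. Filled red points passed at an adjusted p under 0.05 and are named, open points did not pass, and black lines are list medians. Bst1 lies farthest to the right at 2.10 and Inmt farthest to the left at -1.55.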

How the data were processed

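The deposited file holds a signal for each of 13795 genes in every sample, which the authors call normalized gene counts. Its median-of-ratios factors were equal over samples. Per the submitters' processing notes, the tools were STAR 2.5.1a, Partek and DESeq2, whose steps are not described. The build, gene models and use of strand in counting are not stated there. Libraries came from a Clontech SMARTer kit, per the labels' protocols, and RNA integrity exceeded 8. No gene stayed below 40.6 in all samples, so weakly expressed genes are missing.

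Oxaliplatin (n = 5) was set against vehicle (n = 4) using log2(normalized count + 1), a scale that understates changes of low genes. Of all genes, 13788 had a mean of 10 or more. They were fitted in limma 3.58.1 (R 4.3.3) using trended, robust moderation. "Rose", "fell" and "passed" mean a two-sided, Benjamini-Hochberg adjusted p under 0.05 over those genes. The labels do not tie samples to animals, so the p-values reflect sample-to-sample spread, which may be technical. The fit was tested on simulated data in which genes varied independently of each other. Variation shared by many genes, such as that of tissue composition, was therefore not covered.

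The 10 genes and all lists were chosen with earlier results of these data known. Per list, up to 4 passing genes of smallest p were named, or 2 where none passed, and the 6 nearest profiles of Nnmt and of the other gene with the largest difference, without predicted gene models. Tnnt3 and Tnni2 were named after their values were seen. A marker score is the mean of a list's centred log2 values. Levels per length use merged exons of GENCODE M21 (GRCm38), which may not be the authors' annotation.

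Alternatives were a pseudocount of 10, no filter, quantile normalization, plain moderation, array weights, the replicate number as a block, leaving out each sample or the 3 samples rich in atrial markers, and erythroid or fibroblast scores as covariates.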

Additional observations from a re-analysis of the deposited data

Results flagged for a closer look

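Nnmt in oxaliplatin 4 stood apart from the other 4 oxaliplatin samples. It had 579 normalized counts, and the next highest sample, oxaliplatin 3, had 418, a gap that took up 0.751 of the range of the group. The same sample had the highest fibroblast marker sum, 84343 normalized counts, and is among those rich in atrial markers. Without it the log2 fold change of Nnmt was 1.45. It was the 1 sample so far from its group among 56 groups looked at, and chance gives about 1 in 20.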

How the results depend on the processing

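The results were recomputed in 18 alternatives, 9 of which left out 1 sample each. The signs of the log2 fold changes of Nnmt, Nampt, Nmrk2, Nmnat1, Nadk, Cd38 and Sirt1 were the same in all of them. Nnmt also passed in each. It was chosen with its difference in these same samples already known, so nothing is read from its passing. With 1 sample left out, log2 fold changes ran from 1.45 to 1.64 for Nnmt, -0.49 to -0.39 for Nampt, -0.26 to -0.02 for Nmrk1, 1.84 to 3.37 for Nmrk2, -0.38 to -0.22 for Nmnat1, -0.26 to -0.03 for Nmnat3, 0.26 to 0.31 for Nadk, 0.56 to 0.81 for Cd38, -0.51 to -0.26 for Sirt1 and -0.28 to -0.13 for Sirt3. The fibroblast score as a covariate moved Nnmt to 1.25, Nmrk1 to 0.17, Nmnat1 to -0.043, Nmnat3 to 0.28, Nadk to 0.19, Sirt3 to 0.11 and Nmrk2 to 4.17, the erythroid score moved Nmrk2 to 1.56, and Cd38 was 1.03 without the 3 samples rich in atrial markers. Nmrk1 was 0.05 without them. The cause was not tested.

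Genes that passed over the whole table numbered 1110 to 2388 with 1 sample left out, among them 1237 without vehicle 2, 1110 without vehicle 3 and 1301 without oxaliplatin 4. They numbered 3541 with array weights, 988 with the erythroid score and 242 with the fibroblast score as a covariate. Of the 1966 reported, 64.7% were higher. That share was 54.4% after quantile normalization, 55.8% with array weights, 77.3% with the erythroid score and 60.3% to 71.1% with 1 sample left out. Of the 10 genes, 1 to 3 passed with 1 sample left out, 5 with array weights, 2 after quantile normalization and 2 with plain moderation. With the erythroid score 2 passed, without the 3 samples rich in atrial markers 2, and with the fibroblast score 1. Nothing is read from these counts, because the comparison of oxaliplatin and vehicle samples chose the genes. Other NAD genes that rose numbered 3 to 5 with 1 sample left out, 3 without the 3 samples rich in atrial markers, 2 with the erythroid and 0 with the fibroblast score. Those that fell numbered 1 to 8, 14 with array weights, 2 without the 3 samples, 1 with the erythroid and 0 with the fibroblast score. Genes of the methyl donor list that fell numbered 1 to 4, 6 with array weights, 1 with the erythroid and 0 with the fibroblast score. Nadsyn1 turned to -0.050 with the erythroid score, and Sirt7 to -0.12 with the fibroblast score and to -0.025 without vehicle 3. Of the 14 list genes named as passing, 14 passed with a pseudocount of 10 and without the filter, 13 after quantile normalization, 13 with array weights, 10 with plain moderation, 6 without the 3 samples, 4 with the erythroid and 0 with the fibroblast score.

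No pairing by replicate number was seen, with deviations of same-numbered samples correlating at -0.27, -0.06, -0.09 and 0.25. These correlations cannot exclude a pairing. With the replicate block 1413 genes passed, with 3 of the 10 genes, 4 other NAD genes higher and 4 lower, and 2 of the methyl donor list lower. No sample of oxaliplatin 1 to 4 correlated best with the vehicle sample of its own number. Read depth is not given by these values, so counting error at low levels such as those of Sirt1 and Bst1 is unknown.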
